A study of Mus musculus with 13 samples.

Results

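The genes described here encode 10 proteins that modify, fold or crosslink collagen: the lysyl hydroxylases *Plod1*, *Plod2* and *Plod3*, the prolyl 4-hydroxylase subunits *P4ha1* and *P4ha2*, the collagen chaperone *Serpinh1*, and the lysyl oxidases *Lox*, *Loxl1*, *Loxl2* and *Loxl3*. They were chosen by name from 35967 gene symbols, and all 10 were among the 14322 symbols that passed the filter on low values, which required 4 or more libraries at 1 TPM or above. TPM is a transcript level corrected for transcript length and rescaled to the same total in each library. RNA of kidney glomeruli was sequenced from wildtype Balb/c mice, 1 library per mouse, after an intraperitoneal dose of 2.0 mg of rabbit IgG. Control mice received preimmune rabbit IgG (n = 5), and mice with membranous nephropathy (MN) received anti-THSD7A IgG, which binds a podocyte protein, and were taken at day 1 (n = 4) or day 5 (n = 4). The control group combines animals of both days, and the labels do not give the day of a control mouse. By the methods, the MN model used male mice aged 14 to 15 weeks. The antibody was raised in rabbits and transferred passively in a single dose.

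Collagen chains are modified inside the cell before they are secreted. In the endoplasmic reticulum (ER), prolyl 4-hydroxylase hydroxylates proline, which stabilizes the triple helix, lysyl hydroxylases hydroxylate lysine, which sets the type of later crosslinks, and *Serpinh1* protein binds the folded helix. Outside the cell, lysyl oxidases oxidize lysine and hydroxylysine side chains, and the products join neighbouring chains covalently. In the glomerulus the main collagen of the filtration barrier is type IV collagen of the basement membrane, which podocytes and endothelial cells produce.

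Podocyte markers were abundant in every library, with a summed TPM of 6 genes between 6481 and 8763. Of the fibroblast list, *Lum* and *Dpt* were at or near 0 throughout, with highest values of 0.289 and 0.268 TPM. *Pdgfra* of that list averaged 65.9 TPM in control and 58.0 at day 5. *Dcn* averaged 1.05 TPM in control and 2.08 at day 5, where its values did not overlap with control (limma adjusted p = 0.1077). In control replicate 4, the Y-linked gene *Ddx3y* was at 16.3 TPM, against 47.6 to 60.7 in the other 12 libraries, and *Uty* and *Kdm5d* were lower in the same library, so each call below is also given without it where that changes the call. Control replicate 2 had the lowest value of its group for 6 of 6 podocyte markers. Control replicate 5 had the highest value of its group for 6 of 6 proximal tubule markers, and the lowest for 5 of 5 mesangial and 5 of 6 endothelial markers. No tubule marker was called against control. The summed TPM of 6 proximal tubule markers was 318 to 1091 in control, 634 to 996 at day 1 and 471 to 601 at day 5. For 5 markers of the loop, distal tubule and collecting duct it was 255 to 515, 493 to 896 and 345 to 477. At day 1, 6 of 6 proximal and 5 of 5 of these other markers were higher than control. Their median log2 fold changes were 0.75 and 0.61, beside -0.0029 over all tested genes. In RNA of whole glomeruli, fewer cells of a type and less RNA per cell cannot be told apart.

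In control glomeruli the 10 genes covered a wide range of levels. *Serpinh1* had by far the highest level, 423 ± 38.3 TPM (mean ± SD, n = 5), and its lowest library lay above the highest library of the next gene. *Plod2* (92.5 ± 8.59 TPM), *Loxl2* (92.5 ± 15.4), *P4ha2* (90.3 ± 10.1), *Plod1* (82.8 ± 10.1), *Plod3* (80.5 ± 8.21) and *P4ha1* (71.0 ± 13.6) followed in this order, and neighbours in it overlapped between mice. *Loxl3* stood lower at 19.99 ± 2.07 TPM, apart from both its neighbours. *Loxl1* (1.98 ± 0.242 TPM) and *Lox* (1.82 ± 0.123) were close to the filter and overlapped with each other. *Loxl2* was therefore the main lysyl oxidase transcript of these glomeruli and made up 79.2% ± 3.19 of the summed TPM of the 4 lysyl oxidases in control mice.

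**Figure D1:**
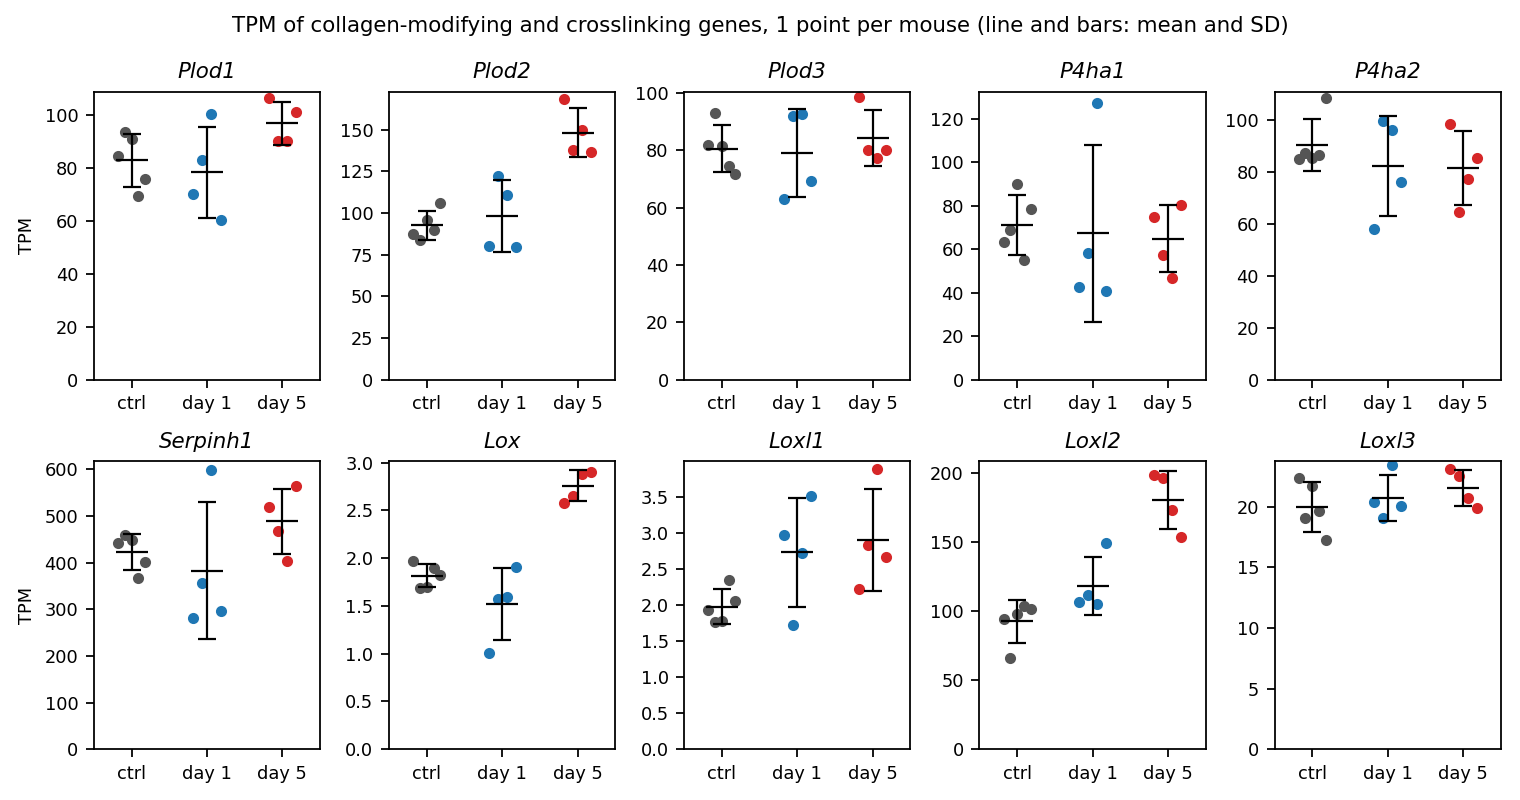
TPM of each of the 10 genes on a linear axis from 0, with 1 point per mouse, the group mean as a line and the SD as bars, for control (n = 5), day 1 MN (n = 4) and day 5 MN (n = 4). For *Plod2*, *Lox* and *Loxl2* the lowest day 5 value lies above the highest control value, and *P4ha1* and *Serpinh1* have 1 high library at day 1.

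The first question was which of these genes differed from control at each time after antibody injection. Differences were fitted with limma on log2(scaled TPM + 0.5) over all 14322 genes, with Benjamini-Hochberg adjustment, and a gene was called when its adjusted p was under 0.05 and its absolute log2 fold change above 0.5. At day 1, 0 of 10 genes were called, against 0.0908% of all tested genes, and 1 of 10 (*Loxl2*) had an unadjusted p under 0.05 in limma, against 12.6% of all tested genes. The background at day 1 changed with control replicate 5: 13 of all 14322 tested genes were called with all libraries and 218 of 14257 without it, and 0 of the 10 genes were called in either case. At day 5, 2 of 10 genes were called against control, *Plod2* and *Loxl2*, both higher, where 3.21% of all tested genes were called in either direction and 2.42% were called higher. The day 5 and day 1 comparisons share the control libraries. The median log2 fold change of the 10 genes was -0.02 at day 1 and 0.25 at day 5, beside -0.0029 and -0.0032 over all tested genes.

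**Figure D2:**
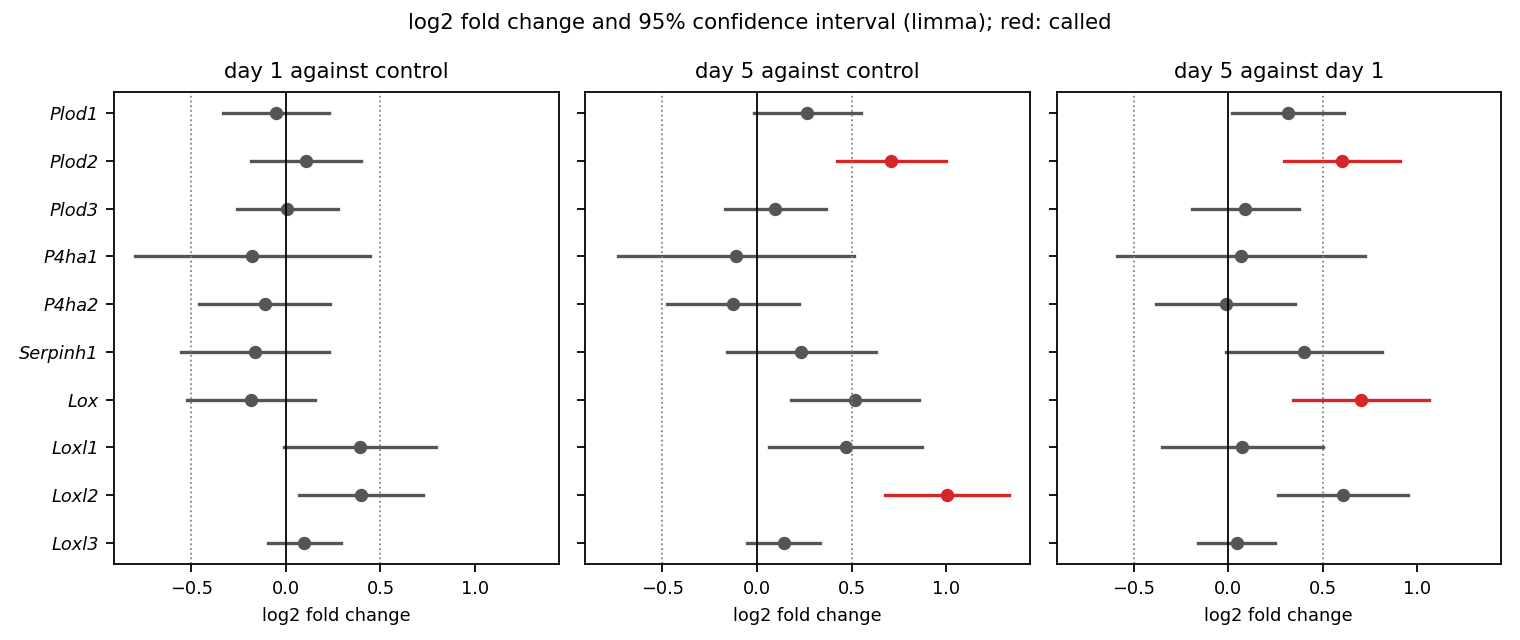
Log2 fold change (x axis) of each gene (y axis) with its 95% confidence interval from limma, for day 1 against control, day 5 against control and day 5 against day 1. Red marks a called gene and dotted lines mark the fold change threshold of 0.5. *Plod2* and *Loxl2* are red for day 5 against control, *Plod2* and *Lox* for day 5 against day 1, and none is red at day 1.

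*Plod2* rose at day 5 and was the only lysyl hydroxylase called. Its protein acts on lysines in the ends of collagen chains, outside the helix, and in this way directs crosslinks toward the stable hydroxylysine-derived kind. In GRCm39 the gene (ENSMUSG00000032374.16) lies on the plus strand at chr9:92424119-92490494. Control mice had 87.2, 83.9, 95.9, 90.03 and 106 TPM, day 1 mice 80.0, 122, 111 and 79.5 TPM, and day 5 mice 168, 138, 150.0 and 136 TPM. All 4 day 5 values exceeded every control and day 1 value, and the day 1 values lay on both sides of the control range. The log2 fold change at day 5 was 0.71 (SE 0.13, limma adjusted p = 0.006246), or 1.64-fold, and at day 1 it was 0.11 (SE 0.13, limma adjusted p = 0.7788).

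The other lysyl hydroxylases were near their control levels. *Plod1*, whose protein modifies lysines within the helix, ranged from 69.4 to 93.5 TPM in control, 60.3 to 100.2 at day 1 and 90.1 to 107 at day 5. Against control the day 5 log2 fold change was 0.27 (95% confidence interval -0.01 to 0.55, limma adjusted p = 0.2758). *Plod3*, whose protein also takes part in adding sugars to hydroxylysine, ranged from 71.8 to 92.9 TPM in control, 63.1 to 92.6 at day 1 and 77.4 to 98.6 at day 5. It differed from control by 0.10 at day 5 (-0.17 to 0.37, limma adjusted p = 0.7406). Both genes overlapped with control at both days. As a share of the summed TPM of the 3 lysyl hydroxylases, *Plod2* was 36.3% ± 4.05 (SD, n = 5) in control, 38.3% ± 1.97 (n = 4) at day 1 and 45.0% ± 1.76 (n = 4) at day 5. The day 5 shares, 42.9% to 47.2%, lay above all control shares, 31.0% to 41.7%. The summed level of the family was 256 ± 14.7 TPM in control and 329 ± 29.8 TPM at day 5.

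*Loxl2* showed the largest log2 fold change of the 10 genes at day 5. It encodes a secreted lysyl oxidase known to act on type IV collagen in basement membranes. In GRCm39 the gene (ENSMUSG00000034205.18) lies on the plus strand at chr14:69846209-69933283. Control mice had 94.1, 65.7, 97.8, 103 and 101 TPM, day 1 mice 106, 112, 105 and 149 TPM, and day 5 mice 198, 196, 173 and 154 TPM. The 3 groups did not overlap: every day 1 value exceeded every control value, and every day 5 value exceeded every day 1 value. At day 5 the log2 fold change was 1.01 (SE 0.15, limma adjusted p = 0.001314), or 2.01-fold. At day 1 it was 0.40 (SE 0.15, 95% confidence interval 0.07 to 0.73), which did not pass (limma adjusted p = 0.3285). Groups did not overlap in the higher direction for 0.908% of all tested genes at day 1 and for 5.07% at day 5. Control replicate 2 had the lowest *Loxl2* level and also the lowest podocyte markers of its group. Without that library the log2 fold change was 0.27 at day 1 and 0.88 at day 5 (limma adjusted p = 0.001068).

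*Lox*, the founding member of the lysyl oxidase family, was expressed near the detection filter. Control mice had 1.97, 1.69, 1.70, 1.90 and 1.83 TPM, day 1 mice 1.00, 1.57, 1.59 and 1.90 TPM, and day 5 mice 2.58, 2.65, 2.88 and 2.90 TPM. The day 5 values lay above all others, while 3 of 4 day 1 values lay below the lowest control value. The log2 fold change at day 5 was 0.52 (SE 0.16) and did not pass the adjusted p threshold (limma adjusted p = 0.07171). It passed without day 1 MN replicate 1 (limma adjusted p = 0.03956), which has the lowest level. That library is outside this comparison but enters the spread estimated over the 3 groups. On the log2(value + 0.5) scale the change of so low a gene is understated: the mean TPM at day 5 was 1.52 times that of control.

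*Loxl1*, whose protein acts mainly on elastin fibers, was equally low. It ranged from 1.76 to 2.35 TPM in control, 1.72 to 3.51 at day 1 and 2.22 to 3.88 at day 5. Of the 4 values in each MN group, 3 exceeded the highest control value, and the groups overlapped. The log2 fold changes of 0.39 (SE 0.19) at day 1 and 0.47 (SE 0.19) at day 5 did not pass (limma adjusted p = 0.4085 and 0.1776). *Loxl3*, a lysyl oxidase with scavenger receptor domains like *Loxl2*, stayed between 17.2 and 23.4 TPM in all 13 libraries, with a log2 fold change at day 5 of 0.14 (95% confidence interval -0.05 to 0.34, limma adjusted p = 0.4203). *Loxl2* took a larger share of the summed lysyl oxidase TPM, 82.3% ± 2.68 (n = 4) at day 1 and 86.8% ± 0.920 (n = 4) at day 5, with the day 5 libraries between 85.8% and 87.7% and the control libraries between 74.5% and 82.8%. The summed TPM of the family was 116 ± 15.9 in control and 208 ± 22.3 at day 5.

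**Figure D3:**
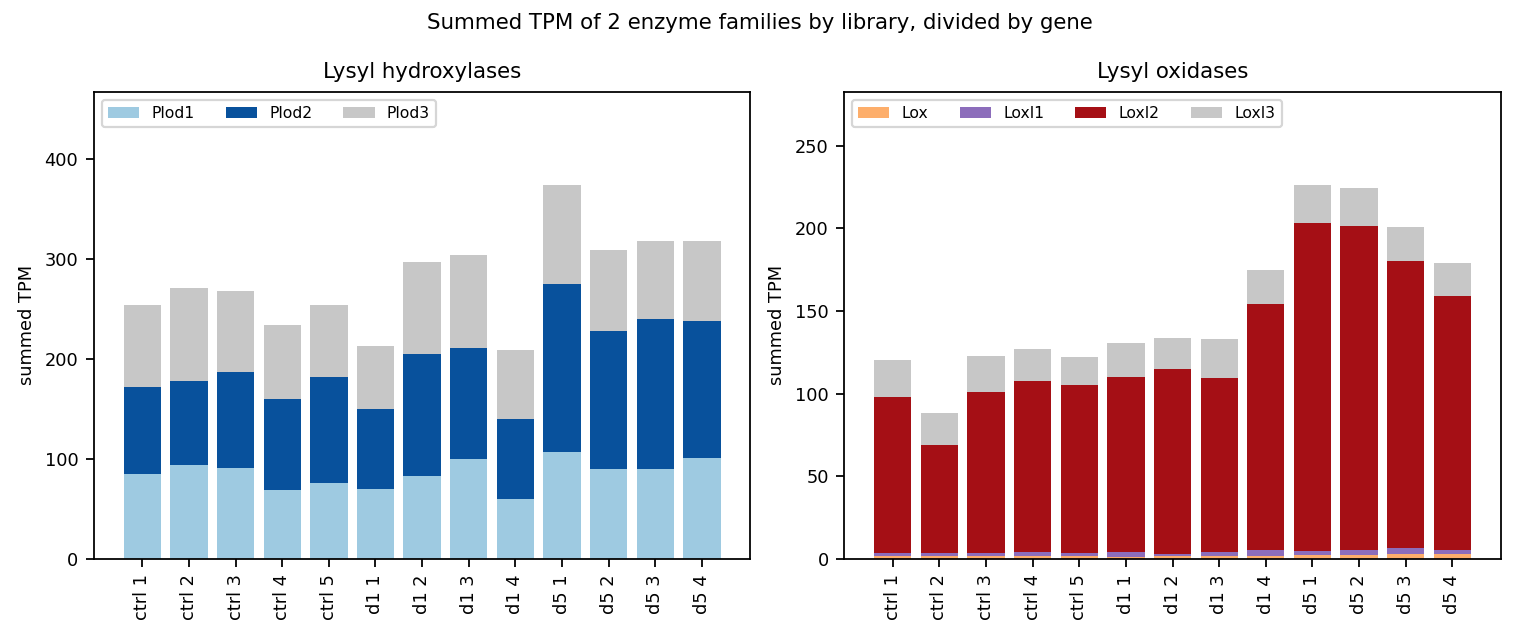
Summed TPM (y axis) of the 3 lysyl hydroxylases and of the 4 lysyl oxidases in each library (x axis), stacked by gene. The *Plod2* and *Loxl2* segments are taller in the 4 day 5 libraries than in the 5 control libraries, while the *Plod3* and *Loxl3* segments have similar heights, and the *Lox* and *Loxl1* segments are thin in all libraries.

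The prolyl 4-hydroxylase subunits were not called at either day. *P4ha1* and *P4ha2* encode alternative catalytic subunits that pair with the *P4hb* protein. *P4ha1* was at 63.3, 68.7, 90.03, 54.8 and 78.3 TPM in control, 42.5, 58.0, 127 and 40.9 TPM at day 1 and 74.6, 57.1, 46.9 and 80.3 TPM at day 5. Day 1 replicate 3 was above every other library, and day 1 replicates 1 and 4 were below every other library. The log2 fold changes were -0.18 at day 1 (95% confidence interval -0.80 to 0.45, limma adjusted p = 0.848) and -0.11 at day 5 (-0.73 to 0.51, limma adjusted p = 0.8866), and the day 5 interval reached past the fold change threshold in both directions, the day 1 interval in the lower one. Its residual SD of 0.49 on the log2 scale was at the 89.5th percentile of all tested genes. *P4ha2* varied less, from 84.8 to 108 TPM in control, 58.0 to 99.3 at day 1 and 64.3 to 98.4 at day 5. It differed from control by -0.11 and -0.13 on the log2 scale (limma adjusted p = 0.8213 and 0.7425).

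*Serpinh1* was not called at either day, and its day 1 libraries spread widely. Control mice had 441, 459, 448, 367 and 402 TPM, day 1 mice 280.4, 355, 599 and 297 TPM, and day 5 mice 519, 468, 402 and 564 TPM. Of the 4 day 1 values, 3 lay below all control values and 1 lay above them, and 3 of 4 day 5 values exceeded the highest control value. The log2 fold changes were -0.16 at day 1 (SE 0.18, limma adjusted p = 0.7494) and 0.23 at day 5 (SE 0.18, limma adjusted p = 0.5322). Without day 1 MN replicate 3 the day 1 value was -0.39 (limma adjusted p = 0.1512).

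In the day 1 group, the 6 genes acting in the ER deviated in the same direction in 3 of 4 libraries. In day 1 replicate 3, 6 of 6 were above their group mean, by 0.45 on average on the log2 scale, and in day 1 replicates 1 and 4, 0 of 6 were. The 4 lysyl oxidases did not share this order, with an average of 0.0062 in day 1 replicate 3. The heat shock chaperones *Hspa1a*, *Hspa1b*, *Hsph1*, *Dnajb1*, *Hsp90aa1* and *Hspa8*, a list chosen after the values were seen, were at their group's highest in day 1 replicate 3 for 6 of 6 genes. *Hspa1b* was at 190 TPM in that library, and at 13.98, 12.1 and 7.89 TPM in the other day 1 libraries. At day 5, replicate 4 was highest and replicate 3 lowest for 6 of 6 chaperones, and *Serpinh1* and *P4ha1* were highest and lowest in the same libraries. The 6 ER genes as a set had another order at day 5: in replicate 1, 6 of 6 were above their group mean, by 0.26 on average, and 4 of 6 were highest, while the chaperones averaged -0.12 there. In control the order was not shared: replicate 5 was highest for 6 of 6 chaperones, *Serpinh1* was highest in replicate 2 and *P4ha1* in replicate 3. Against control, 6 of 6 chaperones were lower at day 1 and at day 5, with median log2 fold changes of -0.51 and -0.31, and 0 were called. The mean chaperone level was used as a covariate in an alternative added after the values were seen. It was taken over all libraries, so it also takes up this difference between groups. With it, the log2 fold change of *Serpinh1* was 0.07 at day 1 and 0.40 at day 5 (limma adjusted p = 0.9125 and 0.07014). *Plod2* and *Loxl2* remained the genes called at day 5. What set these chaperone levels, and their part in the values of the ER genes, was not tested.

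**Figure D4:**
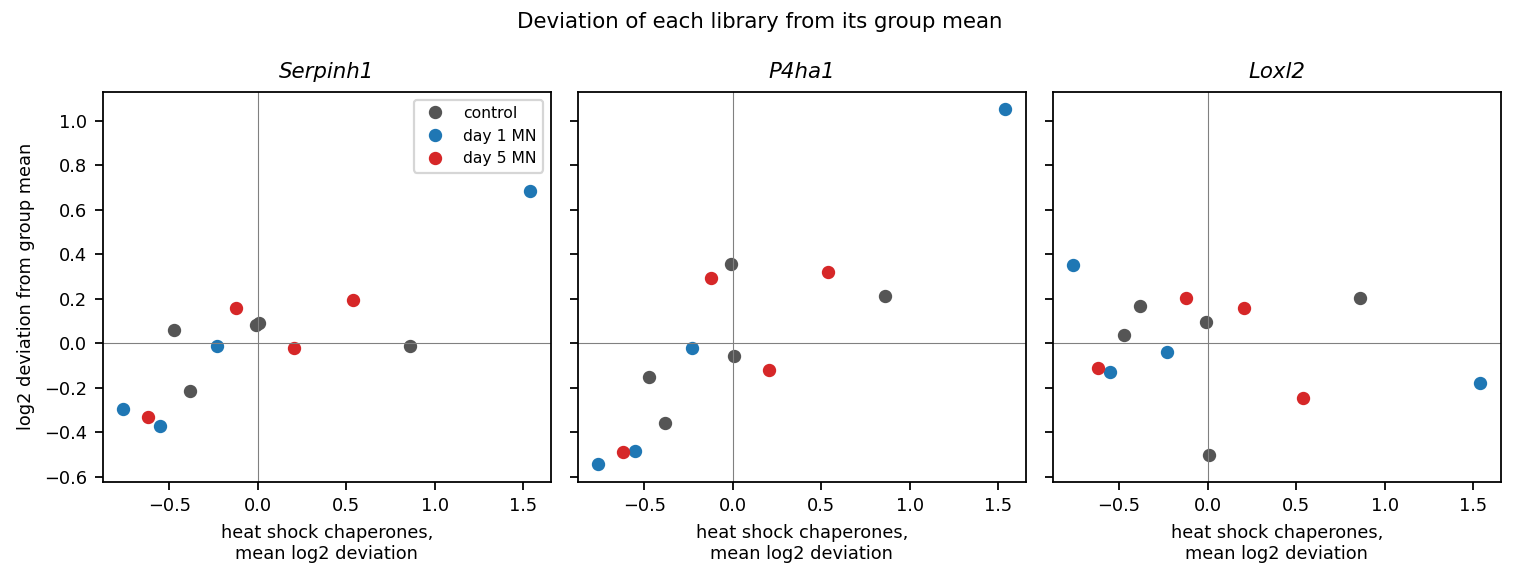
Log2 deviation of *Serpinh1*, *P4ha1* and *Loxl2* from their group mean (y axis) against the mean log2 deviation of 6 heat shock chaperones (x axis), 1 point per library, coloured by group. The day 1 library at 1.54 on the x axis is at 0.69 for *Serpinh1*, 1.05 for *P4ha1* and -0.18 for *Loxl2*.

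*P4ha1* belongs to the textbook targets of hypoxia-inducible factor, and *Serpinh1* to those of heat shock factor, so their promoters are shown as the sequence context of the pair of ER genes with the widest spread between libraries. RefSeq promoter windows, 250 bases before to 50 after a start site, were taken for 5 of the 10 genes (*Plod1*, *Plod3*, *P4ha1*, *P4ha2* and *Serpinh1*). *Lox* was left out of this search, and *Plod2*, *Loxl1*, *Loxl2* and *Loxl3* had no window. The sequences are from build GRCm38.p6, whose positions cannot be set beside those of GRCm39. *P4ha1* is read from the plus strand of chr10:59323046-59323345 and *Serpinh1* from the minus strand of chr7:99353190-99353489, both 5′ to 3′. Capitals mark the hypoxia response core, ACGTG or GCGTG, searched on both strands, with overlapping matches counted as 1 stretch. No binding site of heat shock factor was searched for or marked in either window.
P4ha1: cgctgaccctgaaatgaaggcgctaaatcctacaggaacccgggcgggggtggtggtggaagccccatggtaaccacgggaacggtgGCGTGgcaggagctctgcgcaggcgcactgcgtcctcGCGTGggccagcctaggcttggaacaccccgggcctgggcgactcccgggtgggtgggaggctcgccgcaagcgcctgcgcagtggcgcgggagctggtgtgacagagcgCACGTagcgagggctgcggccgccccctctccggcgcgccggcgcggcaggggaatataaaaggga
Serpinh1: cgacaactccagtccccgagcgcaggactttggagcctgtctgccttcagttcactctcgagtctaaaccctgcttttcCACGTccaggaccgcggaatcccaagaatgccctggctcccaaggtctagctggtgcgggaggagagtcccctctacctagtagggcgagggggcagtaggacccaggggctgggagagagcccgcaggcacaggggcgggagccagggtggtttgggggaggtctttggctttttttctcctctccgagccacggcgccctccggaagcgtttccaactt
The core occurred in 3 separate stretches of the *P4ha1* window and in 1 of the *Serpinh1* window. It was present in 5 of 5 searched windows of these genes, without *Lox*. Of all 32851 promoter windows of the same length, where no gene was left out, 43.8% held it. A match describes the letters and does not show that a factor binds there.

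Of 14 hypoxia-inducible genes other than these enzymes, 1 was called at day 5 against control, *Adm*, which encodes the vasodilator peptide adrenomedullin (log2 fold change 1.04, SE 0.24, limma adjusted p = 0.01922). Over all tested genes 3.21% were called in that comparison. None of the 14 was called in the other comparisons. The 14 genes had a median log2 fold change of 0.10 at day 1, with 10 higher and 4 lower, and of 0.0050 at day 5, with 7 higher and 7 lower. Between the MN groups the median was -0.08, with 4 higher and 10 lower. The genes of the list with the highest control levels, *Vegfa* and *Ldha*, had log2 fold changes at day 5 of -0.35 and 0.09 (limma adjusted p = 0.09593 and 0.5912).

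Between the MN groups, *Plod2* and *Lox* were called higher at day 5 than at day 1, 2 of 10 genes against 1.81% of all tested genes in either direction and 1.41% in the higher direction. The log2 difference was 0.60 for *Plod2* (SE 0.14, limma adjusted p = 0.04252) and 0.70 for *Lox* (SE 0.17, limma adjusted p = 0.04276). For *Loxl2* it was 0.61 (SE 0.16), and it did not pass (limma adjusted p = 0.07004). For all 3 genes the groups did not overlap, which held in the higher direction for 6.12% of all tested genes. These calls lay close to the threshold. Over 25 alternatives the adjusted p ran from 0.01307 to 0.1319 for *Plod2*, which was called in 11, from 0.006068 to 0.19 for *Lox*, called in 9, and from 0.01924 to 0.2007 for *Loxl2*, called in 5. *Serpinh1* had a log2 difference of 0.40 (limma adjusted p = 0.3391), and without day 1 MN replicate 3 it was called, at 0.63 (limma adjusted p = 0.02616). Without control replicate 4, 0 of 10 genes were called in this comparison, and the same count was found without control replicate 1 or 3, day 1 replicate 1, or any 1 of the 4 day 5 libraries. In the same comparison 5 of 5 markers of the loop, distal tubule and collecting duct and 6 of 6 proximal tubule markers were lower at day 5, with medians of -1.22 and -0.77, and *Aqp2* and *Calb1* of the first list were called (limma adjusted p = 0.02859 and 0.03131). The summed TPM of the first list was 493 to 896 at day 1 and 345 to 477 at day 5, beside 255 to 515 in control. With the proximal tubule marker level as a covariate, *Loxl2* was called in this comparison and *Plod2* and *Lox* were not (limma adjusted p = 0.03748, 0.1113 and 0.19).

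The partners of these enzymes in the ER were slightly higher at day 5. Of 15 listed genes for prolyl 3-hydroxylation, peptide isomerization, glycosylation and export of collagen, 14 were tested. By limma 0 were called in any comparison, where 3.21% of all tested genes were called at day 5 against control. At day 5, 13 of 14 had a log2 fold change above 0, beside 7062 of all 14322 tested genes, and the list median was 0.15. The summed TPM of the 15 genes was 1405 to 1481 in control and 1524 to 1595 at day 5. *P4hb*, the partner of both prolyl 4-hydroxylase subunits, was at 307 TPM in control and 336 at day 5 (log2 fold change 0.16, SE 0.05, limma adjusted p = 0.07193). *Ppib*, a peptidyl-prolyl isomerase of procollagen, had a log2 fold change of 0.12 (limma adjusted p = 0.2412). *Colgalt2*, a collagen galactosyltransferase, named after its values were seen, had an adjusted p under the threshold with a fold change below it (0.33, limma adjusted p = 0.04082).

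Outside the cell, 7 further processing and crosslinking genes were tested, and 0 were called by limma in any comparison. At day 5 against control 3.21% of all tested genes were called. Of 8 genes that trim procollagen or help its proteinases, 3 were tested. *Bmp1*, a procollagen C-proteinase, had a log2 fold change at day 5 of 0.16 (SE 0.09, limma adjusted p = 0.3941), and *Pcolce*, an enhancer of that proteinase, of 0.26 (SE 0.08, limma adjusted p = 0.06066). Of 6 further crosslinking or fiber assembly genes, 4 were tested. *Efemp2*, which encodes an elastic fiber protein, had a log2 fold change at day 5 of 0.34 (SE 0.10, limma adjusted p = 0.06642). *Pxdn*, the peroxidase that forms the sulfilimine crosslink of type IV collagen, was at 86.7 ± 4.62 TPM (n = 5) in control, 85.1 ± 6.77 (n = 4) at day 1 and 106 ± 7.005 (n = 4) at day 5. The day 5 difference of 0.32 on the log2 scale (SE 0.07, limma adjusted p = 0.01078) passed the adjusted p threshold, as 6.12% of all tested genes did, but not the fold change threshold, and all 4 day 5 values lay above the highest control value.

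Several substrate genes rose at day 5. Of 20 listed collagen and elastin genes, 19 were tested. At day 5 against control 5 were called higher, all of them collagens, where 2.42% of all tested genes were called higher. At day 1, 0 were called, against 0.0908% of all tested genes. *Col4a1*, a chain of the ubiquitous type IV collagen, was at 307, 287, 370, 304 and 187 TPM in control, 284, 324, 228 and 402 TPM at day 1 and 526, 612, 470 and 411 TPM at day 5 (log2 fold change at day 5 of 0.85, SE 0.19, limma adjusted p = 0.01905). Its partner chain *Col4a2* rose by 0.85 (SE 0.22, limma adjusted p = 0.04033). The lowest *Col4a1* control value, 187 TPM, came from control replicate 5, which was also lowest for 5 of 5 mesangial and 5 of 6 endothelial markers. Alternatives were collected for the 10 enzymes only, so the substrate calls were not checked without that library. *Col4a5*, a chain of the mature glomerular basement membrane, rose by 0.71 (SE 0.14, limma adjusted p = 0.009842), while *Col4a3*, of the same trimer, had a log2 fold change of 0.03 (95% confidence interval -0.26 to 0.32). The fibrillar collagen chains *Col5a2* and *Col5a3* rose by 0.55 (SE 0.11, limma adjusted p = 0.008101) and 2.71 (SE 0.28, limma adjusted p = 7.963e-05). *Col5a3* was at 0.832 ± 0.186 TPM in control and 8.73 ± 3.96 TPM at day 5. The median log2 fold change of the 19 genes at day 5 was 0.38, beside 0.25 for the 10 enzymes.

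**Figure D5:**
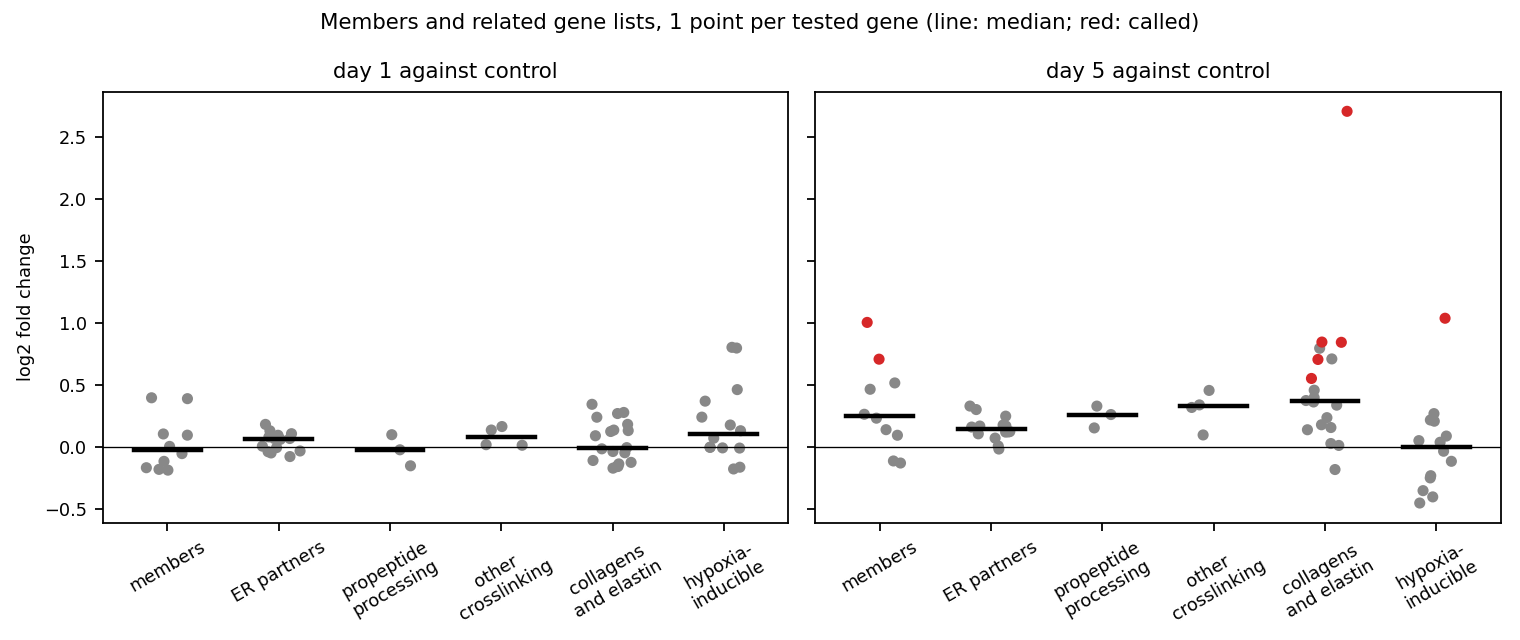
Log2 fold change (y axis) at day 1 and day 5 against control for the 10 genes and 5 related lists (x axis), 1 point per tested gene, with the list median as a line and called genes in red. At day 5 the red points are 2 of the 10 genes, 5 collagens and 1 hypoxia-inducible gene, and at day 1 there are none.

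Other transcripts moved between the same groups. Of the marker lists, 4 of 4 proliferation genes were called higher at day 5 against control, where 2.42% of all tested genes were. Their summed TPM was 11.2 to 21.1 in control and 76.7 to 118 at day 5. In the parietal epithelial list 1 of 3 genes was called (*Cldn1*, log2 fold change 1.08, limma adjusted p = 0.003601), with a summed TPM of 11.5 to 15.4 in control and 18.3 to 22.9 at day 5. No gene of the podocyte, endothelial, mesangial, smooth muscle, fibroblast, tubule or leukocyte lists was called at day 5 against control. In each of the podocyte, endothelial and mesangial lists, 1 gene passed the adjusted p threshold with a fold change below 0.5 in size. The podocyte gene was lower (log2 fold change -0.46), and the endothelial and mesangial genes were higher (0.29 and 0.42). Higher than control were 6 of 6 endothelial, 4 of 5 mesangial, 4 of 4 smooth muscle and 4 of 4 tested leukocyte genes. So were 2 of 6 podocyte, 1 of 2 tested fibroblast, 3 of 6 proximal tubule and 3 of 5 other tubule genes. *Plod2* and *Loxl2* were also called at day 5 with the mean proximal tubule marker level as a covariate. That list had a median log2 fold change of -0.0069 at day 5 against control, so this alternative does not bear on the lists that moved. No covariate was run for the proliferation or parietal lists. The part of proliferating, parietal or other cells in the day 5 values was not tested.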

How the data were processed

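Glomerular RNA of 13 mice was analysed, 1 library per mouse. By the paper's methods, kidneys were perfused with magnetic beads, and glomeruli were then freed by collagenase digestion or mechanically. The mechanical approach is named there for co-immunoprecipitation, and the approach for RNA is not stated separately. The authors deposited TPM values, made with kallisto 0.46.2 against GRCm39 after trimming with Trimmomatic 0.39 and quality checks with FastQC 0.11.9, per the labels and the paper's methods, with 1 value per gene symbol. TPM keeps no read depth, so the depth of each library is unknown and no counting error is given. The precision rests on 4 or 5 mice a group. The p-values use 1 spread per gene, estimated within all 3 groups together and drawn toward a trend over all tested genes. The authors ran DESeq2 on counts. Here the unit called for a test on a log scale.

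Each library was scaled by a median-of-ratios factor over 15772 symbols above 0 in all libraries, and log2 was taken after adding 0.5. The fit covered the 14322 of 35967 symbols that reached 1 TPM in 4 or more libraries. It was run in R 4.3.3 with limma 3.58.1 (lmFit, contrasts.fit and an eBayes trend), all 3 groups in 1 fit, with Benjamini-Hochberg adjustment within each comparison. Calls used the study's thresholds, an adjusted p below 0.05 together with a log2 fold change over 0.5 in size. The procedure was tested on simulated data. All 10 genes were named, and of the related lists genes called in any comparison and the 2 with the highest control TPM. The genes and lists were chosen with earlier results of these data known. Gene positions come from the GENCODE annotation of GRCm39, promoter windows from RefSeq (GRCm38.p6). Alternatives covered scaling, pseudocounts, filters, the variance model, the groups in the fit, a replicate block, library weights, covariates, the call rule and leaving out each library. Plots used matplotlib 3.10.9 in Python 3.11.15.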

Additional observations from a re-analysis of the deposited data

Results flagged for a closer look

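Among 30 groups of values (10 genes in 3 groups), 4 had a library far from the others of its group, where chance gives about 1 in 20. *Loxl2* was at 65.7 TPM in control replicate 2, below the other control libraries, and at 149 TPM in day 1 MN replicate 4, above the other day 1 libraries. *P4ha2* was at 108 TPM in control replicate 5. *Plod3* was at 98.6 TPM in day 5 MN replicate 1.

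The changes from control differed between the days for *Plod2*, by 0.60 on the log2 scale, and for *Lox*, by 0.70, in limma's test of day 5 against day 1 (adjusted p = 0.04252 and 0.04276). *Plod2* was higher in 4 of 4 day 5 libraries than in any day 1 library, and so was *Lox*.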

How the results depend on the processing

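The counts of 0 genes called at day 1 and of 2 at day 5 against control kept their size under the alternatives run, except that 3 were called at day 5 when all libraries had to reach 1 TPM, without the mean-variance trend and without day 1 MN replicate 1, where *Lox* was added. *Plod2* and *Loxl2* were called at day 5 in 25 of 25 alternatives, with adjusted p from 0.00246 to 0.02827 and from 0.000724 to 0.01128. The count of 2 between the MN groups was 3 without scaling factors (*Plod2*, *Lox* and *Loxl2*), 1 with a pseudocount of 0.1 (*Plod2*), 0 with no filter, 1 without the trend (*Lox*), 1 with only the 2 compared groups (*Loxl2*), 1 with the tubule covariate (*Loxl2*), 1 with the heat shock covariate, added after the data were seen (*Plod2*), and from 0 to 3 with 1 library left out. Except where fewer genes or samples entered, the cause was not tested. Replicate numbers do not pair the mice: deviations of libraries with the same number correlated between -0.0563 and 0.0913. With the replicate block, 0 genes were called at day 1, 2 at day 5 and 0 between the MN groups, and the count over all tested genes at day 1 was 149 in place of 13.

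Of 750 single-gene values under alternatives, 675 kept their direction and side of the threshold, 30 lost a call, 9 gained one and 36 changed sign, all of them values that were not called. The log2 values that changed sign at day 1 were 0.11 (*Plod1*) and 0.041 (*Serpinh1*) with the tubule covariate, 0.072 (*Plod1*), 0.22 (*P4ha1*), 0.0065 (*P4ha2*) and 0.067 (*Serpinh1*) with the heat shock covariate, and for *Plod3* -0.038 without scaling factors and -0.018 with the replicate block. At day 5 against control the heat shock covariate gave 0.17 for *P4ha1*. Between the MN groups, the tubule covariate gave -0.078 (*Plod3*), -0.071 (*P4ha1*), 0.051 (*P4ha2*) and -0.047 (*Loxl3*), and the heat shock covariate -0.046 (*P4ha1*). With 1 library left out, the ranges that crossed 0 at day 1 were -0.17 to 0.067 (*Plod1*), -0.013 to 0.20 (*Plod2*), -0.078 to 0.11 (*Plod3*), -0.53 to 0.0045 (*P4ha1*) and -0.22 to 0.042 (*P4ha2*). At day 5 against control the range was -0.21 to 0.056 (*P4ha1*), and between the MN groups -0.011 to 0.18 (*Plod3*), -0.11 to 0.42 (*P4ha1*), -0.17 to 0.094 (*P4ha2*), -0.089 to 0.19 (*Loxl1*) and -0.0074 to 0.093 (*Loxl3*). No depth is known for any library, so the counting error of low values such as those of *Lox* and *Loxl1* could not be given.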
